A study of Mus musculus with 31 samples.

Results

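Open chromatin was described at 10 genes of the Notch pathway in mouse NIH-3T3 cells, from the accessible regions (peaks) called in ATAC-seq of the parental line. The genes were listed by name and are the receptors Notch1, Notch2, Notch3 and Notch4, the ligands Jag1, Jag2 and Dll4, and the target genes Hes1, Hey1 and Heyl. They are 10 of 21938 protein-coding genes in the GENCODE M21 annotation, and 75 of the 63456 peaks had their summit in these genes or within 50 kb of them. Peaks were taken in 3 positions: within 1 kb of a transcript start of the gene, over all annotated transcripts (a promoter peak), in the gene body, and within 50 kb of the gene to either side.

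NIH-3T3 is an established line of mouse embryonic fibroblasts. The library used here came from 50000 cells of the wild-type line, which carries no transcription factor transgene, and was made with 0.5 µM Tn5 transposase and 12 PCR cycles per the labels. The study made it to map accessible regions of the genome in these cells, beside ATAC-seq of the same line with overexpression of single transcription factors. The other 30 of its 31 samples were not analysed here. With 1 library there was no replicate, so no test between samples could be made, and the values below are a description of this library.

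Notch receptors are single-pass membrane proteins that bind ligands of the Jagged and Delta-like families on a neighbouring cell. Binding leads to cleavage of the receptor by an ADAM protease and then by gamma-secretase, and the freed intracellular domain enters the nucleus, where it joins the DNA-binding protein RBPJ and a Mastermind coactivator. The Hes and Hey genes, which encode basic helix-loop-helix repressors, are the best known direct targets, and in mesenchymal cells the pathway is known for its part in differentiation.

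Peaks are described by 2 of the deposited measures. Fold enrichment is the fragment pileup at the summit over the pileup expected from the surroundings, each with 1 added, and −log10 q is the adjusted significance of that excess. At some weak peaks, such as that in exon 5 of Hey1, the expected pileup was 2.81, which equals the general background pileup. The number of fragments at the summit was solved from the fold and the deposited −log10 p, and is given with its 95% Poisson interval, which covers counting error only. The methods give a range of sequencing depth for the study's libraries, but the peak list gives no total of reads for this one, and the shallowest peak in the list rests on 10 fragments. Of the fibroblast marker genes 11 of 12 had a promoter peak, the exception being Fap, against 4 of 8 endothelial, 2 of 7 epithelial, 2 of 7 blood and 1 of 5 muscle markers. The share over all protein-coding genes was 53.7%. In height the open fibroblast markers did not stand above the endothelial ones, with median folds of 6.33 and 7.36. The medians were 4.32 for epithelial, 3.05 for blood and 5.00 for muscle markers. Not all of these peaks lay within 1 kb of the start of the principal coding transcript. Among the endothelial markers only Tek, with a fold of 3.58, had a peak there. The fibroblast markers all had one there except Thy1, Pdgfra and Fap. Of the other open markers Grhl2, Spi1 and Des had none there. The heights compared thus include peaks at other transcript starts, those of Pecam1, Cdh5 and Vwf among them.

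Promoter peaks were found at 6 of the 10 genes: Notch1, Notch2, Notch4, Jag1, Hes1 and Hey1. Notch3, Jag2, Dll4 and Heyl had none. Among all protein-coding genes 53.7% had a promoter peak, so the share of the 10 genes lies near the background. By role, 3 of 4 receptors, 1 of 3 ligands and 2 of 3 target genes had one. Counted only from the main start, which is the start of the principal coding transcript, the same 6 genes had a peak within 1 kb, beside 49.4% of all coding genes.

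CpG-rich sequence in mammals marks promoters that are often open in many cell types. In the 1000 bp around the main start, 7 of the 10 genes had a GC content of at least 50% and a ratio of observed to expected CpG of at least 0.6, as did 46.1% of all coding genes. Of these 7 genes 4 (Notch1, Notch2, Jag1 and Hey1) had a peak within 1 kb. The share was 80.7% over the CpG-rich starts of all coding genes. The 3 CpG-rich starts without a peak were those of Notch3, Jag2 and Dll4, with CpG ratios of 0.61, 0.92 and 0.60. Of the remaining genes Hes1, with a ratio of 0.67 but a GC content of 45.7%, and Notch4, with a ratio of 0.16, had a peak at the main start, and Heyl, with a ratio of 0.54, had none.

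**Figure D1:**
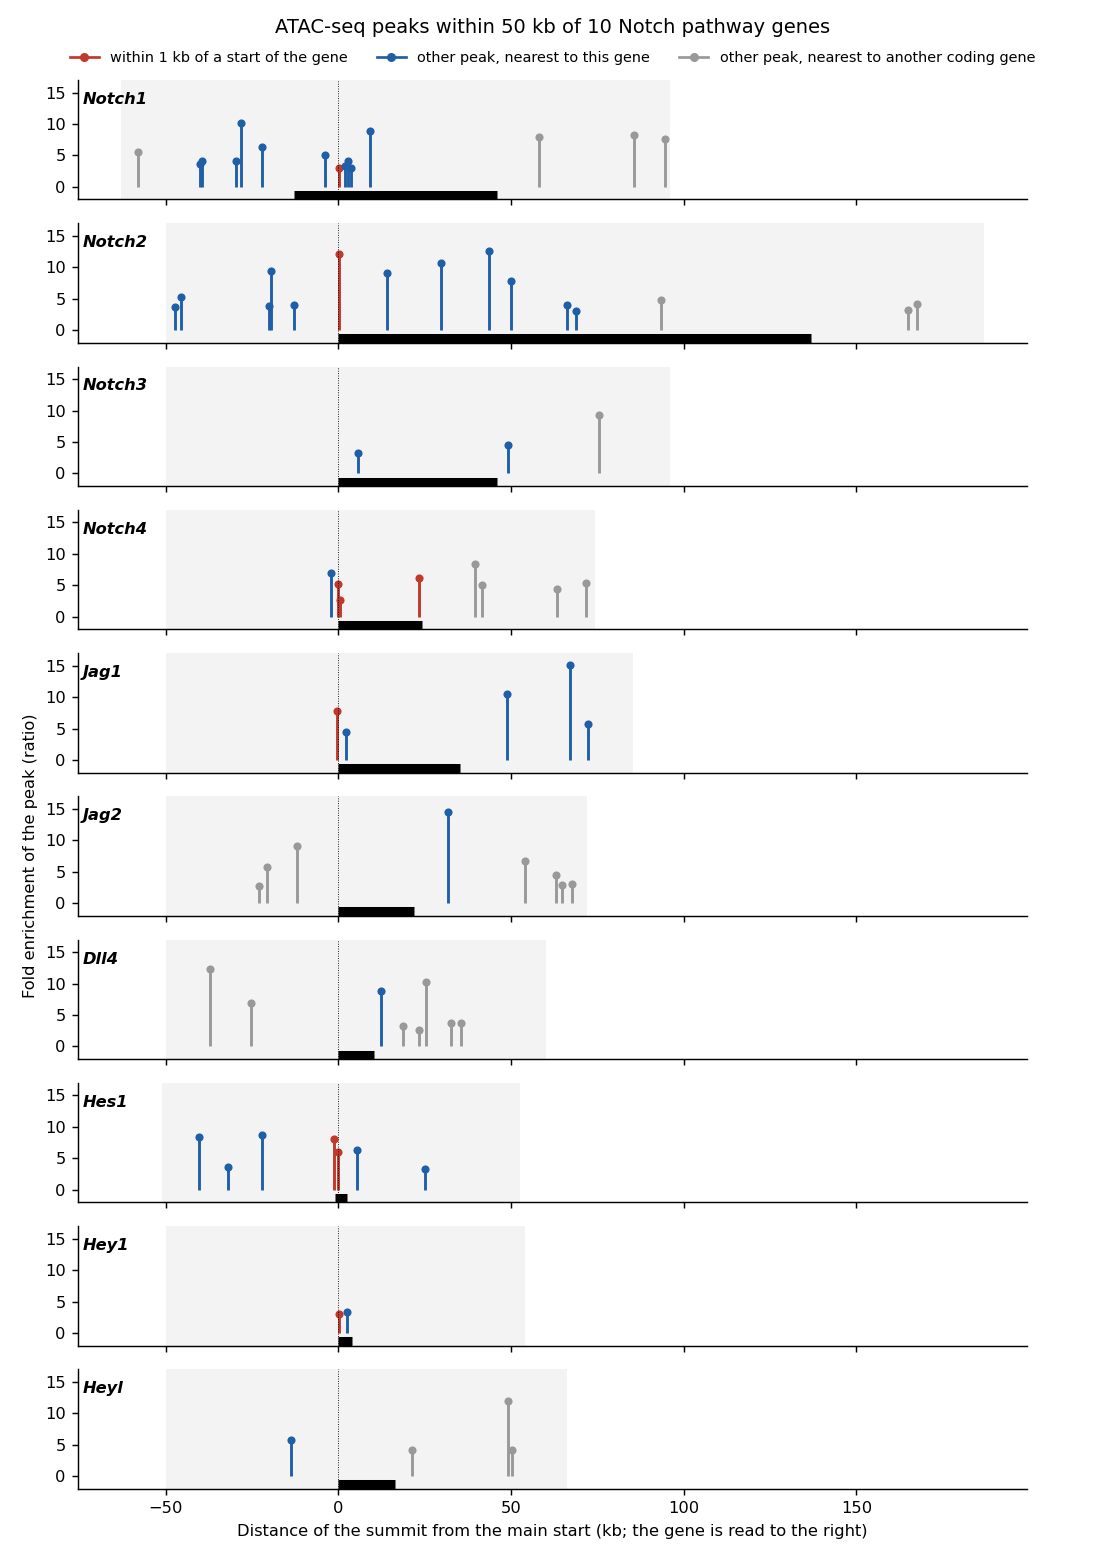
Peaks within 50 kb of each of the 10 genes, with the distance of the summit from the main start in kb on the x axis (each gene reads to the right) and fold enrichment on the y axis. Black bars are gene bodies and grey shading is the window searched; red stems are promoter peaks, blue stems other peaks nearest to the gene, and grey stems peaks nearest to another coding gene. The Notch1 and Notch2 windows hold 15 peaks each and the Hey1 window 2.

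Within 50 kb every one of the 10 genes had at least 1 peak, as did 84.2% of all coding genes, and 7 of 10 had a peak in the gene body, beside 50.6% of all coding genes. The counts ran from 15 peaks for Notch1 and Notch2 to 2 for Hey1. Per 100 kb of window the median of the 10 genes was 6.39 peaks, against 3.93 for all coding genes, and per 10 kb of gene body it was 0.434 against 0.0419. The median number of body peaks was 1 in both. Since only 50.6% of all coding genes had a body peak, their median density lies near the floor. The ratio of the 2 densities is therefore not a measure of how far they differ. Body counts also include promoter peaks with their summit in the gene. Of the 75 peaks, 21 had their summit in the gene body, 24 upstream of it and 30 downstream, and 9 of the 75 were promoter peaks. The nearest coding gene was the Notch gene itself for 46 peaks and another gene for 29.

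Windows of genes with and without a promoter peak differed in which gene their peaks lay nearest to. Around the 6 genes with a promoter peak, the gene itself was the nearest coding gene for 41 of 52 peaks. Around the 4 genes without one it was so for 5 of 23 peaks, the rest lying closer to a neighbour. Since a promoter peak is nearly always nearest to its own gene, part of this contrast follows from the way the genes are divided. The 41 peaks were 11 at Notch1, 12 at Notch2, 4 at Notch4, 5 at Jag1, 7 at Hes1 and 2 at Hey1. No such share was counted over all coding genes, and gene length and close neighbours were not taken into account.

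The peaks of these genes were of ordinary height. Median fold was 5.22 against 6.04 for all peaks, median −log10 q 12.3 against 13.6, and the median number of fragments 31 against 29. Fold was below 5 in 35 of the 75 peaks, or 46.7%, against 37.7% of all peaks, and at least 10 in 10 peaks, or 13.3%, against 20.1%. The expected pileup was also higher around the 10 genes, with a median of 4.69 fragments against 3.79, which lowers the fold for a given number of fragments.

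**Figure D2:**
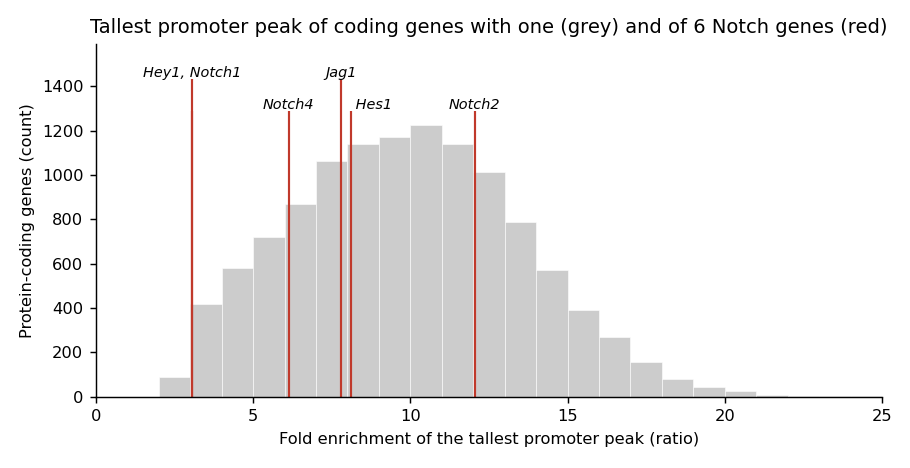
Fold enrichment of the tallest promoter peak on the x axis and the number of protein-coding genes on the y axis in bins 1 fold wide, for the 11788 coding genes with a promoter peak (grey bars, of which 5 genes above a fold of 25 are not drawn). Red lines mark the 6 Notch pathway genes, of which Notch2 alone lies above the median of 9.86.

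The tallest promoter peaks ranged from a fold of 3.06 at Hey1 to 12.0 at Notch2. Over the 11788 coding genes with a promoter peak the median was 9.86, with quartiles at 7.27 and 12.4. Ordered by fold the genes ran Notch2, Hes1, Jag1, Notch4, Notch1 and Hey1. Ordered by fragments they ran Jag1, Hes1, Notch2, Notch4, Notch1 and Hey1. The intervals of Jag1, Hes1 and Notch2 overlap, so the first 3 places are not told apart by counting error, whereas the intervals of Notch1 and Hey1 lie below those of these 3 genes. By −log10 q or by fragments, Notch2, Jag1 and Hes1 were above the median of open coding genes (42.0 for −log10 q and 64 fragments), whereas by fold only Notch2 was. For Hes1 the tallest promoter peak lay at a non-coding transcript start, and for Notch4 over exon 30. The peaks over their main starts had folds of 5.94 and 5.16, on 64 and 32 fragments. In −log10 q the Hes1 peak there, at 27.5, was below the median.

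**Figure D3:**
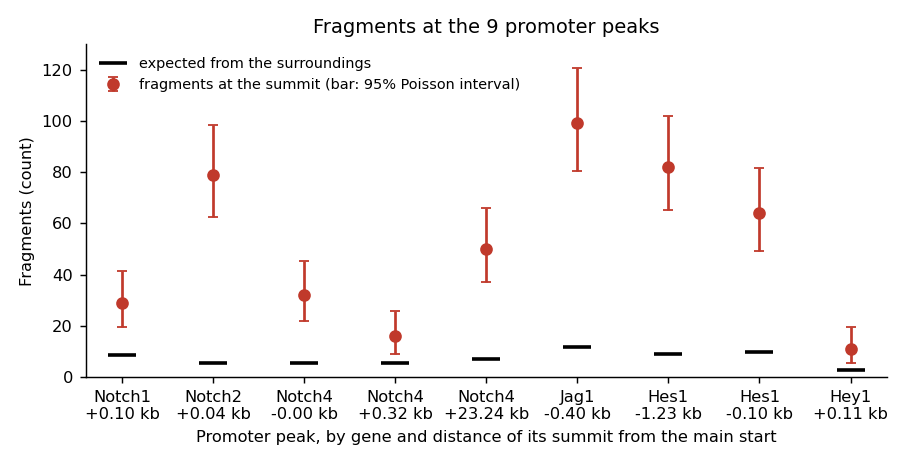
Fragments at the summit of each of the 9 promoter peaks (points, with bars for the 95% Poisson interval) and the number expected from the surroundings (black dashes), by gene and distance of the summit from the main start. Jag1 has the most fragments, 99, and Hey1 the fewest, 11, with an expected pileup of 11.8 and 2.93.

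Notch1 and Notch2 had 15 peaks each within 50 kb, with 9.45 and 6.33 per 100 kb of window. Among the receptors Notch2, which is broadly expressed in mesenchyme, had the tallest peaks by fold, both at a promoter and outside it. Its gene lies at chr3:98013527-98150361 on the plus strand, and its promoter peak at chr3:98013132-98014238 covered the main start, with the summit 39 bp inside exon 1. The fold was 12.0, −log10 q was 57.7, and 79 fragments (95% interval 62.5 to 98.5) stood against 5.64 expected. Of the open coding genes 72.0% had a lower fold. The sequence just before the gene is shown because it is the open CpG-rich start that contrasts with the start of Jag2 below: over 200 bases it holds 32 CpG and is 76.5% GC. Capitals mark the GC box GGGCGGG, a binding sequence of Sp factors (plus strand, chr3:98013327-98013526).
Notch2 upstream: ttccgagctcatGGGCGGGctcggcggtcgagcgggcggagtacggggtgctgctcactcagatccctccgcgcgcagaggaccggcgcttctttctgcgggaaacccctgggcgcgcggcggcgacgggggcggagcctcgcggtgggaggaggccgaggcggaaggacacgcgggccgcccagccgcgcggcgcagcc

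The taller of the other Notch2 peaks in the gene body fell in introns 1 and 2. Of 8 peaks in the gene body 7 were intronic and outside the promoter. In intron 1 there were peaks 14.0 kb (fold 9.07, 51 fragments) and 29.7 kb (fold 10.7, 76 fragments) from the main start, and in intron 2 at 43.6 kb and 50.0 kb. The peak at 43.6 kb, chr3:98056262-98057425, was the tallest in the gene by every measure, with a fold of 12.6, a −log10 q of 83.3 and 114 fragments against 8.12 expected, slightly above the promoter itself in fold. The peak at 50.0 kb had a fold of 7.88, and the remaining 3, in introns 4, 5 and 11, had folds of 3.94, 3.06 and 4.87. Upstream, the tallest of 5 peaks lay 19.4 kb away with a fold of 9.37.

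The intron 1 peak at 29.7 kb is shown as an example of an open region with an AP-1 sequence at its centre. AP-1 is the family of Fos and Jun factors, which are active in growing fibroblasts, and its letters TGANTCA are in capitals, 11 bp from the summit (plus strand, chr3:98043203-98043353, 151 bases centred on the summit).
Notch2 intron 1: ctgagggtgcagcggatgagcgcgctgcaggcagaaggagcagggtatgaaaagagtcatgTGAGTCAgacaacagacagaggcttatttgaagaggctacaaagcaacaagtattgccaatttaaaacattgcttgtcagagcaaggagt

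Notch1 is the prototype receptor of the family, and its promoter peak was near the low end of the range over coding genes. The gene lies at chr2:26457903-26516663 on the minus strand, and the peak, chr2:26503486-26503910, covered the main start, that of the principal coding transcript, with its summit 99 bp inside exon 1. The fold was 3.07 and −log10 q 5.53, from 29 fragments (19.4 to 41.6) against 8.77 expected. Only 0.891% of the open coding genes had a lower fold, while 11.7% had fewer fragments, the expected pileup being above the median of 3.79 over all peaks. A second coding transcript starts at the far 5′ end of the gene, and the nearest peak was 8632 bp from that start.

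Around the weak Notch1 promoter peak lay a cluster of other peaks. In intron 2, 3 peaks 2.01, 2.80 and 3.65 kb from the main start had folds of 3.29, 4.05 and 3.02, much as at the promoter. The peak further in, at 9.12 kb, was taller, with a fold of 8.86 and 59 fragments. In all, 11 of the 15 peaks in the window were nearest to Notch1, and 91.5% of coding genes had fewer peaks per length of window. The tallest, at chr2:26531742-26532296, was 28.2 kb upstream of the main start and 15329 bp upstream of the 5′ end of the gene, with a fold of 10.2 and 70 fragments against 5.96 expected.

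A second upstream peak, at chr2:26525776-26526174 and 22.1 kb from the main start, had a fold of 6.38 from 31 fragments. It held both a core of the RBPJ binding sequence, GTGGGAA (here read on the other strand as TTCCCAC), and an AP-1 sequence, and these are in capitals (minus strand, chr2:26525807-26526057).
Notch1 upstream peak: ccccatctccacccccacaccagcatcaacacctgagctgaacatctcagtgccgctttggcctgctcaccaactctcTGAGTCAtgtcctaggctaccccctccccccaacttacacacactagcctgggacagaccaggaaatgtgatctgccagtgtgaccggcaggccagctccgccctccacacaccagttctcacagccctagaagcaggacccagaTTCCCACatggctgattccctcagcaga

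Notch3, the receptor of pericytes and vascular smooth muscle, had no promoter peak. It lies at chr17:32120820-32166852 on the minus strand, and the nearest peak to its main start was 5609 bp away, in intron 2, with a fold of 3.20 from 13 fragments (expected 3.38). Its window held 3 peaks, and 31.0% of coding genes had fewer peaks per length of window. The tallest, with a fold of 9.31 and 52 fragments, lay 75.3 kb from the start within the pseudogene Pdxk-ps, and its nearest coding gene was Rrp1b.

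Notch4, a receptor known mainly from endothelium, had 3 promoter peaks. The gene lies at chr17:34564268-34588503 on the plus strand. The peak over the main start, chr17:34564082-34564388, had a fold of 5.16 and 32 fragments (21.9 to 45.2), although the CpG ratio here was the lowest of the 10 genes, and it held an AP-1 sequence whose first base lies 23 bp inside the transcript. A small peak in intron 1, 319 bp from the start, had a fold of 2.64 from 16 fragments. The tallest of the 3, chr17:34586916-34587887, lay 23.2 kb into the gene over exon 30, next to the starts of short non-coding transcripts, with a fold of 6.13 and 50 fragments (37.1 to 65.9). A further peak 2.15 kb upstream had a fold of 6.98 and 42 fragments, more than the peak at the start itself. The tallest peak in the Notch4 window, with a fold of 8.36, was 179 bp from the start of the neighbouring gene Rnf5.

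Jag1 was the ligand gene with a promoter peak. Jag1 encodes a Jagged ligand that fibroblasts and vessel wall cells present to their neighbours, and the gene lies at chr2:137081456-137116644 on the minus strand. The promoter peak at chr2:137116505-137117727 was the widest of the promoter peaks, with its summit 400 bp upstream of the main start. It had the most fragments, 99 (80.5 to 121), but the surroundings were also high, with 11.8 expected, so that the fold was 7.80 and 29.7% of the open coding genes were lower. A peak in intron 2, 2.32 kb from the start, had a fold of 4.43 from 59 fragments against 12.6 expected, with the E box CACGTG 7 bp from its summit.

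The tallest peak of all 75 lay downstream of Jag1. At chr2:137049285-137049741, 67.1 kb from the Jag1 start and in an intron of the neighbouring gene Slx4ip, it had a fold of 15.1 and a −log10 q of 52.3, from 60 fragments (expected 3.03). A second one, 48.9 kb from the start and over a coding exon of Slx4ip, had a fold of 10.4 and 66 fragments, and the third, at 72.3 kb, had a fold of 5.78 and 21 fragments. Jag1 was the nearest coding gene for all 5 peaks of its window. For the tallest this was by the start of a retained-intron transcript of Jag1, 36414 bp away.

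Both taller downstream peaks are shown because they hold RBPJ core and AP-1 letters together within 100 bases of the summit. How many of all peaks hold both was not counted. The first holds 2 RBPJ cores in opposite orientation, 18 and 80 bp from the summit, and 1 AP-1 sequence at 66 bp. The second holds 1 of each in the window shown, the AP-1 sequence 82 bp and the core 96 bp from the summit, at the edge. Capitals mark these letters (minus strand, chr2:137049435-137049635 and chr2:137067653-137067853, 100 bases to either side of the summits).
Jag1 downstream, 67.1 kb: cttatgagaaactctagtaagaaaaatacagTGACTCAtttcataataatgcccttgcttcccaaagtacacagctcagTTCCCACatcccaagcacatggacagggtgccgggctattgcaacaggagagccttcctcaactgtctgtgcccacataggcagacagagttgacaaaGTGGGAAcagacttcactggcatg
Jag1 downstream, 48.9 kb: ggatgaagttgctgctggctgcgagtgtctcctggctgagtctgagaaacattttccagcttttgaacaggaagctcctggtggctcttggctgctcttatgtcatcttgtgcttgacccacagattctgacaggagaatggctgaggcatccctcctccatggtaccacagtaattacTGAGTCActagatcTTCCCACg

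Jag2, the other Jagged ligand, had no promoter peak and none in its body. It lies at chr12:112907819-112929776 on the minus strand, and the closest peak was 11862 bp from its main start, at the promoter of the neighbour Nudt14. Over all coding genes without a promoter peak the median distance to the nearest peak was 28190.5 bp, and over CpG-rich starts without one it was 17045 bp. The 200 bases upstream are shown beside those of Notch2 because they are of the same kind, with 24 CpG and 73.0% GC, and hold the GC box (read here as CCCGCCC, in capitals), yet no peak was called there (minus strand, chr12:112929777-112929976).
Jag2 upstream: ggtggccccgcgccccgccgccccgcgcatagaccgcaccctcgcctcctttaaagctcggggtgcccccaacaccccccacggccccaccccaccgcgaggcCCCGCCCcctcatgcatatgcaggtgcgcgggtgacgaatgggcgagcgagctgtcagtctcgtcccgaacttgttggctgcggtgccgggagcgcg

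The Jag2 window held 8 peaks, and Jag2 was the nearest coding gene for 1 of them, by a retained-intron transcript start 12384 bp away. That peak, chr12:112897739-112898237, lay 31.8 kb downstream of the start, beyond the end of the gene, and was the second tallest of the 75, with a fold of 14.4, a −log10 q of 63.9 and 78 fragments against 4.47 expected. The other 7 were nearest to Gpr132, Nudt14 or Brf1, with folds from 2.75 to 9.11. An AP-1 sequence lay 25 bp from the summit of the downstream peak and is in capitals (minus strand, chr12:112897909-112898059, 151 bases centred on the summit).
Jag2 downstream: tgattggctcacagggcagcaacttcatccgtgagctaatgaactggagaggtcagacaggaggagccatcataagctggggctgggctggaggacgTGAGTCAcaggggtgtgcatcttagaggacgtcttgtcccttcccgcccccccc

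Dll4, the Delta-like ligand best known from arterial endothelium, likewise had no peak at its start or in its body. It lies at chr2:119325784-119335962 on the plus strand, and the nearest peak was 11919 bp from the main start. Of 8 peaks in the window 1 was nearest to Dll4, 12.3 kb from the main start and past the end of the gene, with a fold of 8.78 and 45 fragments. The 2 tallest lay at the starts of neighbours, with a fold of 12.3 at Vps18 (112 bp from its start) and 10.3 at Chac1 (100 bp). The dense window of Dll4, above 79.9% of coding genes in peaks per length, thus held mainly peaks nearest to the starts of other genes. Which gene a peak acts on was not tested.

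Among the target genes Hes1, a repressor gene that Notch induces in many tissues, had 2 promoter peaks. The gene lies at chr16:30064384-30067796 on the plus strand. The first peak, chr16:30063662-30064420, covered the 5′ end of the gene, the start of a non-coding transcript, and had a fold of 8.10, a −log10 q of 45.1 and 82 fragments (65.2 to 102). The second, chr16:30065126-30065387, covered the main start, that of the coding transcript, with its summit 0.101 kb upstream, and had a fold of 5.94, a −log10 q of 27.5 and 64 fragments (49.3 to 81.7) against 9.94 expected. The 2 fragment intervals overlap, while fold and −log10 q were higher in the first.

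The second Hes1 peak is shown because it holds the sequence arrangement for which this promoter is known: a pair of RBPJ sites facing each other, on which 2 Notch complexes can assemble. The pair was searched as TGNGAA and TTCNCA separated by 15 to 17 bases, and in Hes1 it spans 80 to 53 bp upstream of the start. Capitals mark the RBPJ core GTGGGAA and the facing site TTCACA (plus strand, chr16:30065190-30065339, which ends at the base before the main start). The N box CACNAG, to which Hes proteins themselves bind, is also found here as cacgag, 128 bp upstream and again overlapping the end of the pair.
Hes1 upstream: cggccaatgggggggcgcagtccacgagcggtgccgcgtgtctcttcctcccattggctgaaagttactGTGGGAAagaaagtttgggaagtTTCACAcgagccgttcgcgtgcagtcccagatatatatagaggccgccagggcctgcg

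Among the 75 peaks this was the only one with such a pair. Within 100 bases to either side of the summit the pair was found in 75 of the 63456 peaks of the library, or 0.118%, and in 16 of 16264 peaks within 1 kb of a transcript start. In the stretch from 250 bases before to 50 after the main start, 32 of all 21938 coding genes had the pair, or 0.146%, and 5.95% had the RBPJ core. Of the 10 genes Hes1 and Hey1 had the core in that stretch, and Hes1 alone had the pair.

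Away from its promoters Hes1 had 5 peaks, and Hes1 was the nearest coding gene for all 7 of its window. The tallest were 22.3 kb upstream (fold 8.72, 41 fragments) and 40.4 kb upstream (fold 8.34, 39 fragments, with 2 AP-1 sequences), both above the fold of the peak at the coding start. The third, 5.31 kb from the start and beyond the end of this short gene, had a fold of 6.26 and 43 fragments.

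Hey1 had the sparsest window and the promoter peak with the fewest fragments. It encodes a Hey repressor known from mesenchymal and vascular cells and lies at chr3:8663359-8667256 on the minus strand. Its promoter peak, chr3:8667092-8667240, lay within exon 1, with its nearest edge 16 bp from the main start, and had a fold of 3.06, a −log10 q of 2.16 and 11 fragments (5.49 to 19.7) against 2.93 expected. Of the open coding genes 0.848% had a lower fold and 0.0509% fewer fragments. The only other peak within 50 kb lay in exon 5, with a fold of 3.41 from 12 fragments. Hey1 and Notch1 thus had almost the same fold at the promoter, 3.06 and 3.07, on 11 and 29 fragments.

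Heyl, the third target gene, had no promoter peak and none in its body. It lies at chr4:123233556-123249875 on the plus strand, its start has the lowest CpG ratio after that of Notch4, and the nearest peak was 13407 bp from the main start. That peak, 13.6 kb upstream with a fold of 5.79 and 25 fragments, was the 1 peak of 4 in the window nearest to Heyl. The tallest, with a fold of 12.0, was at the start of the neighbour Pabpc4.

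The tall peaks outside promoters were spread over several of the genes. Of 66 such peaks 9 had a fold of at least 10. Of these 3 lay within 1 kb of the start of a neighbouring gene (Vps18, Chac1 and Pabpc4). The other 6 were the peaks in the windows of Notch1, Notch2, Jag1 and Jag2 described above. In all, 10 of the 66 lay within 1 kb of the start of another coding gene.

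Short sequence motifs in the 75 peaks were counted on both strands and, within 100 bases of the summit, set beside the same count over all peaks. In 52 peaks over 1 kb from any transcript start, the 100 bases to either side of the summit held the RBPJ core in 3.85%, against 4.77% of all 47192 such peaks, and the AP-1 letters in 30.8% against 44.4%. The N box was found in 48.1% against 41.5%, the E box in 7.69% against 3.18%, and the GC box in 9.62% against 3.13%, the latter 2 resting on 4 and 5 peaks. The TEAD sequence GGAATGT was found in 5.77% against 5.53%, the RUNX sequence TGTGGTT in 5.77% against 8.84% and the ETS sequence CCGGAAG in 3.85% against 1.35%, and the CRE sequence TGACGTCA in none, against 0.320%. Over full peak lengths CRE was found in 1 of the 75 peaks, over exon 30 of Notch4. In 23 peaks within 1 kb of the start of any gene, the GC box was found in 52.2% against 31.8% of 16264, AP-1 in 8.70% against 14.0% and the RBPJ core in 4.35% against 4.00%. Over the full length of the 75 peaks there were 11 RBPJ cores in 10 peaks at 7 of the genes. There were 30 AP-1 sequences in 26 peaks at 8 of the genes, Notch3 and Hey1 having none. Full lengths were not counted over all peaks, so these numbers have no background beside them. Within 100 bases of the summit, 4.00% of the 75 peaks held the RBPJ core, against 4.57% of all peaks. For AP-1 the shares were 24.0% against 36.6%. N box letters can overlap the E box and the RBPJ pair, and were counted separately.

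**Figure D4:**
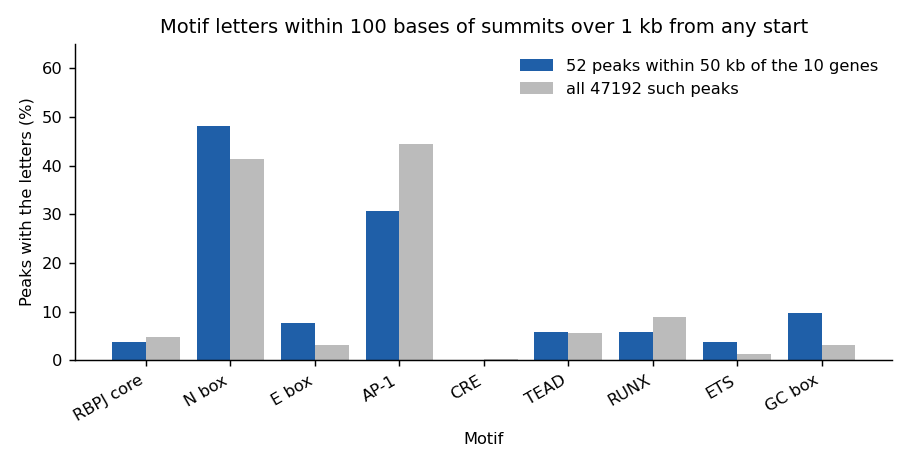
Share of peaks over 1 kb from any transcript start that hold each motif within 100 bases to either side of the summit (y axis, percent), for the 52 peaks within 50 kb of the 10 genes (blue bars) and for all 47192 such peaks (grey bars). The largest gap is for AP-1, 30.8% against 44.4%.

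The rest of the pathway was read from a list of 47 genes grouped by role. Of these 35, or 74.5%, had a promoter peak, beside the 53.7% of all coding genes, and their median fold was 10.6, against 9.86 for all coding genes with one and 6.96 for the 6 open genes among the 10. Most of the 47 genes had a CpG ratio of at least 0.6 at the main start. Over the CpG-rich main starts of all coding genes the share with a peak was 80.7%. Whether CpG content accounts for the share of the 47 was not tested. Shared machinery made up most of the 35 open genes. All 5 nuclear corepressors and all 3 proteases of receptor maturation or shedding had one, as did 6 of 7 gamma-secretase subunits and 5 of 6 members of the nuclear complex. The tallest were those of the corepressor gene Tle1 (fold 17.1), of Numb, an inhibitor of Notch (16.7), and of Ncstn, the nicastrin subunit of gamma-secretase (15.6). Numb, Fbxw7 and Neurl1a had no peak within 1 kb of the main start, so their promoter peaks lay at other transcript starts. Rbpj itself had 3 promoter peaks. The highest fold among them was 11.8 and the highest number of fragments 141, each taken separately over the peaks.

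Genes for ligands and Hes or Hey factors outside the 10 mostly lacked a promoter peak. Of the other ligands 1 of 4 had one (Dner, fold 5.69), and Dll1, Dll3 and Dlk1 did not. Of the other Hes and Hey factors 1 of 4 had one (Hes6, fold 11.8), and Hey2, Hes5 and Hes7 did not. In the remaining groups the genes without a promoter peak were the coactivator gene Maml2, the gamma-secretase subunit gene Aph1c, the Fringe glycosyltransferase gene Mfng, the ubiquitin ligase genes Neurl1b and Dtx1, and Nrarp, a feedback inhibitor that is itself a Notch target. Ligand endocytosis had 3 of 4, glycosyltransferases 4 of 5, and receptor turnover and inhibition 7 of 9 genes with a promoter peak.

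**Figure D5:**
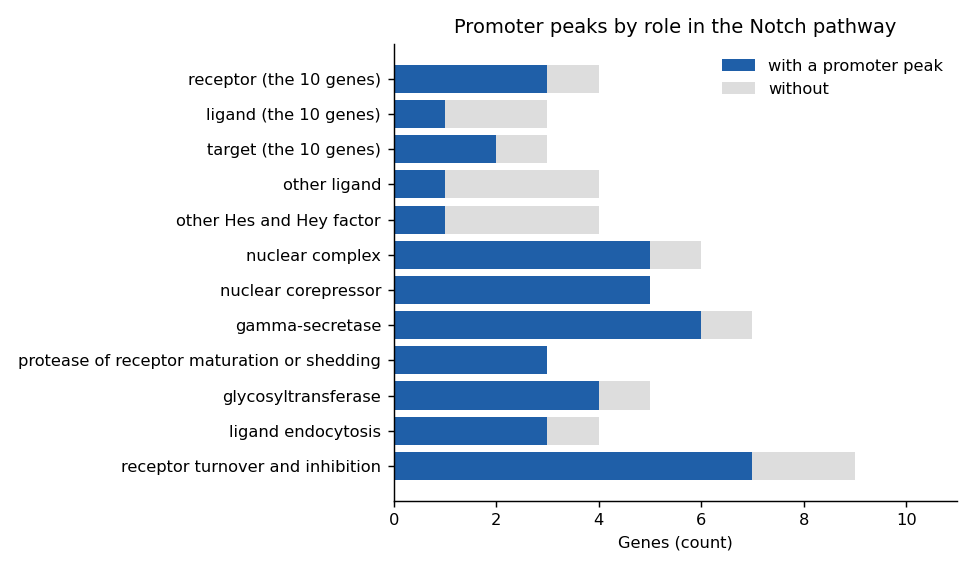
Number of genes with (blue) and without (grey) a promoter peak, by role, for the 10 genes (top 3 bars) and the 47 other genes of the pathway. Ligands and other Hes and Hey factors are the groups in which most genes had none, with 1 of 3, 1 of 4 and 1 of 4 genes open.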

How the data were processed

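The peaks came from ATAC-seq of the parental NIH-3T3 line, 1 library; ATAC-seq of the overexpression and rtTA3G control lines was not analysed here. Paired-end reads were aligned by the authors to mm10, who then removed duplicates and called peaks in paired-end mode; the submitters' processing notes name STAR 2.5.3a, Picard, SAMtools, deepTools and MACS2 2.1.1.20160309. Per the methods, peak calling followed the ChIP-seq procedure, in which blacklisted and input regions were discarded; whether this was done for ATAC-seq is not given in the sources used here. Whether the parental cells received doxycycline, as the methods state for NIH-3T3 cells in general, is likewise unsettled.

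The authors deposited for each peak a fold enrichment (a linear ratio), a −log10 p and a −log10 q, which is a Poisson p-value and its adjusted q-value at the summit, and a score derived from the q-value, which was not used. No peak carried a q above the caller's threshold, so regions just under it are not seen.

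Peaks were matched to GENCODE M21 and to the RefSeq sequence of GRCm38.p6, the build of the files, with coordinates counted from 1. A promoter peak had its interval within 1 kb of the start of any transcript of the gene; body and 50 kb peaks were counted by the summit. The main start was that of the APPRIS principal coding transcript, or the longest where several were principal. Fragments and expected pileup were obtained by solving the deposited fold and −log10 p together, which gave a p within 0.01 of the deposited one for 99.97% of peaks and was tested on simulated data. The nearest coding gene was taken over the starts of all transcripts of coding genes. Motif letters were searched on both strands. Described by name were all 10 genes with their tallest promoter peak, tallest other peak and tallest body peak, and of the pathway list every gene without a promoter peak and the 3 tallest; further peaks, and Rbpj, Dner and Hes6, were named after their values were seen. The members and lists were chosen with earlier results of these data known. Figures were drawn with matplotlib 3.10.9, and values computed with SciPy 1.17.1, pandas 2.3.3 and NumPy 2.4.6 under Python 3.11.15.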

Additional observations from a re-analysis of the deposited data

How the results depend on the processing

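The count of 6 genes with a promoter peak stayed between 4 and 6 under 9 other settings, of which the start of the principal coding transcript was chosen after seeing the data. Over all coding genes the share ran from 48.7% to 56.5% under these settings. In the main setting 6 of the 10 genes stood beside 53.7% of all coding genes, and at a fold of at least 5 it was 4 beside 48.8%. Hey1 was lost when the peak had to cover the start or have a q of 1e-05 or below, Notch1 when only the gene's own 5′ end counted, and both at a fold of at least 5. The 21 body peaks became 9 at a fold of at least 5. The 75 peaks within 50 kb became 44 within 20 kb, 134 within 100 kb, 40 at a fold of at least 5, and 46 when only peaks nearest to the gene counted, each following from the narrower or wider selection. Within 100 bases of the summit 4.00% of the 75 peaks held the RBPJ core and 41.3% the N box; within 200 bases these shares were 14.7% and 60.0%, and within 50 bases the N box was found in 30.7%. Over all peaks the RBPJ core went from 4.57% within 100 bases to 9.09% within 200, so the share of the 75 peaks moved from below to above that of all peaks, on 3 and 11 peaks; the cause was not tested. By fold 1 gene was above the median of open coding genes, by −log10 q 3, and by fragments 3. The remaining 22 of 32 alternative values stayed within a factor of 1.5 of the main count or, for motif shares, within the 95% interval of the main share. Among them, at a q of 1e-05 or below, the 21 body peaks became 14 and the 75 peaks 54. The AP-1 share was 17.3% within 50 bases and 33.3% within 200, beside 24.0% within 100. The pathway count stayed between 30 and 35 of 47 genes. At a fold of at least 5 it was 30, beside 48.8% of all coding genes. No paired analysis was possible because the peak list comes from 1 library without replicates. With 1 library and no read total for it, a weak region such as the Hey1 promoter, at 11 fragments, cannot be told from one that would fall short of calling in a repeat, and a missing peak does not show closed chromatin.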
